A study of Mus musculus with 3 samples.

Results

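The 10 genes described here encode the kinases, adaptors and effectors that stand closest to the high-affinity IgE receptor of mast cells: Syk, Lat, Lat2, Lcp2, Grb2, Gab2, Btk, Plcg1, Plcg2 and Vav1. They were chosen by gene symbol and role, though with earlier results of these data known. They were found as 10 of the 31131 gene names on a mouse microarray, where 16 of its 39429 distinct probes read them. Each of the 10 genes had at least 1 probe well above background on every array. On single arrays none of the 10 genes, each read by its brightest probe, differed 2-fold between treatments. A dim Syk probe and a dim Plcg1 probe, neither well above background on every array, differed more. On the brightest probes the widest difference from vehicle was in Lcp2, which was 1.30-fold higher with GW9662 on its 1 probe. A value table that the authors deposited gives the signals of that array to the epoxides instead.

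When antigen crosslinks IgE held by the receptor, the Src family kinase Lyn phosphorylates the receptor's beta and gamma chains, and Syk docks there and is activated. Syk phosphorylates the transmembrane adaptors LAT and NTAL, the products of Lat and Lat2, on which Grb2, SLP76 (the product of Lcp2), Vav1, Btk and the phospholipase C gamma enzymes assemble. The assembled enzymes release calcium from stores and lead to degranulation and cytokine synthesis in mast cells, while Gab2 links the receptor to phosphatidylinositol 3-kinase. Most of this traffic is controlled by phosphorylation, which an RNA measurement does not read.

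The study placed mast cells grown from bone marrow of Pafah2-deficient mice on 3 arrays, 1 array for each treatment. Pafah2 encodes a phospholipase of the platelet-activating factor acetylhydrolase family that frees oxidised and epoxidised fatty acids from membrane phospholipids. The treated cells received omega-3 epoxides at 300 nM, as 17,18-EpETE and 19,20-EpDPE in a ratio of 2 to 3, or the PPAR gamma antagonist GW9662 at 0.5 µM, and the remaining culture received the solvent DMSO as vehicle. Treatment lasted 12 hours in each case. All donor mice were male, on the C57BL/6 background and 12 weeks old by the sample labels. All 3 cultures lack Pafah2, so the set holds no wild-type reference, and which part of the gene was deleted is not given in the sources used here. The labels do not mention IgE or antigen in the treatments.

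The probes are 60 bases long, and those that lie in coding sequence are shown for 5 of the genes because they tie a signal to a named stretch of the protein's code. The Btk probe ends in the codons His-Arg-Asp of the catalytic loop of a protein kinase, in capitals. The Lat probe holds a tyrosine codon followed by any codon and an asparagine codon, in capitals, which is the core of a site that the SH2 domain of Grb2 can bind once it is phosphorylated. The Vav1 probe reads its SH2 domain, and the Gab2 probe runs to the stop codon. The Plcg1 probe is a coding probe of its gene that was well above background on every array.
Btk: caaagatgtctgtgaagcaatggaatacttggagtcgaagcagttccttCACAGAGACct
Lat: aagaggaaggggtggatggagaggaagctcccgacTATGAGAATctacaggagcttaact
Vav1: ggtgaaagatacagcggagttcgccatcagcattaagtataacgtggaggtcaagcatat
Plcg1: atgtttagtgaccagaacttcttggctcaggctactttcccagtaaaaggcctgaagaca
Gab2: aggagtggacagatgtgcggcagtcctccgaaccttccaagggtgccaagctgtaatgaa

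The letters CACAGAGAC were found on either strand in 48 of the 39429 probes of the array (0.122%), and the pattern TATNNNAAT in 1501 of them (3.81%). These matches describe the probes and say nothing of the proteins' activity. In the array's mm9 coordinates the Btk probe lies at chrX:131083955-131084014 on the minus strand, the Lat probe at chr7:133507719-133507778 on the minus strand, the Plcg1 probe at chr2:160587142-160587201 on the plus strand and the Gab2 probe at chr7:104453474-104453533 on the plus strand. The array file gives no position for the Vav1 probe. Its gene is on chromosome 17 in RefSeq.

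Before any comparison, 1 disagreement in the deposit bears on every value of the treated cells. The authors also deposited a value table with 1 column per sample. Its epoxide column holds the signals of the scanner file given under GW9662, and its GW9662 column those of the scanner file given under the epoxides. Its vehicle column and scanner file match. The scanner files are used here as attached, and the arrays are called by their labels. If the value table is right, the values given for the epoxide and GW9662 arrays belong to each other's group.

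Between 52.3% and 54.6% of the 43020 non-control spots on an array were well above background, and no spot was saturated. Copies of a probe on 1 array differed with an SD of 0.0553 to 0.0602 on the log2 scale, which gives a technical SD of 0.079 to 0.082 for a log2 ratio between arrays. This SD covers spot error only, and with 1 array per group no difference has a replicate check or a test. The 3 arrays shared 1 slide and 1 scan time. In a band of rows that ends at row 400 of 532, 7.69% of the readings of copied probes lay 2-fold or more from their probe's median, against 0.589% elsewhere, and 11 of the 16 probes sit in those rows. Among copies well above background the shares were 0.638% and 0.0267%. Ratios also followed the GC content of the probe (its percentage of G and C). An alternative that removes a fitted trend in GC content and signal is called detrending below.

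Mast cell identity was borne out by the markers, with 13 of 14 well above background on all 3 arrays. The exception was the tryptase gene Tpsab1. Kit, the stem cell factor receptor, stood at log2 levels of 5.68 with epoxides, 5.75 with GW9662 and 5.73 with vehicle. Other mast cell markers were less even, and 9 of the 13 had a ratio below 0 for epoxides over vehicle, within a range of -0.68 to 0.12. The summed linear level of the mast cell list was 600.1 with epoxides, 683.9 with GW9662 and 755.3 with vehicle, in multiples of the 75th percentile, and its part in the values below was not tested. A level is the log2 of a probe's intensity over the array's 75th percentile, so 0 is that percentile. Lat, Lcp2, Plcg1 and Vav1 are also used by T cells, and 3 of 12 T cell markers were well above background on all arrays. Their list had a summed linear level of 1.55 with epoxides, 2.21 with GW9662 and 2.53 with vehicle, in multiples of the 75th percentile. Within it Cd3e stood at -1.40 with epoxides, -0.61 with GW9662 and -0.31 with vehicle, and Cd4 at 0.078 with epoxides, 0.49 with GW9662 and 0.64 with vehicle. Cd28, the remaining detected one, did not follow that order, at -4.89 with epoxides, -4.60 with GW9662 and -4.76 with vehicle. These levels lie near the lowest called well above background, so the order of Cd28 is weakly read. Cd3d, Cd3g, Cd247 and Cd8a were not well above background on any array. Of the other lists, 4 of 12 B cell markers, 7 of 12 macrophage markers, 4 of the 11 neutrophil markers on the array and 5 of 6 basophil markers were well above background on all arrays. The part of such cells in the values below was not tested, and in these bulk samples fewer cells of a type and less RNA per cell cannot be told apart.

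Syk, the kinase recruited to the phosphorylated gamma chain, was read at log2 levels of 1.98 on the epoxide array, 1.89 on the GW9662 array and 1.97 on the vehicle array. The log2 ratio was 0.0053 for epoxides over vehicle and -0.081 for GW9662 over vehicle, both within 1 technical SD. The 3 levels thus lay almost together. This probe matches the RefSeq transcript and lies at chr13:52744088-52744147 on the plus strand. A further Syk probe, at chr13:52738924-52738983, was designed on a cDNA clone from embryonic stem cells and read differently. It stood at -3.21 on the epoxide array, well above background, but at -5.66 on the GW9662 array and -5.24 on the vehicle array, where it was not well above background. Against the lowest level called well above background, its signal with epoxides was at least 3.09-fold higher than with vehicle and at least 3.52-fold higher than with GW9662. It sits in row 369, among the rows with discordant copies, and the RefSeq probe of the same gene showed no such difference.

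Btk, the Tec family kinase that phosphorylates the phospholipase C gamma enzymes, had 2 probes well above background. The brighter, at chrX:131076995-131077054, stood at 4.26 with epoxides, 4.25 with GW9662 and 4.19 with vehicle. The probe with the catalytic loop codons stood at -0.059 with epoxides, 0.13 with GW9662 and 0.20 with vehicle. Its log2 ratio for epoxides over vehicle was -0.26, whereas the brighter probe gave 0.073. The 2 probes therefore disagreed in sign, with a range of 0.33 against a technical SD of 0.12 for such a difference, although both hold 45% G and C. After detrending they remained on opposite sides of 0, at 0.25 and -0.15. The brighter one lies in row 261, among the rows with discordant copies, and the other in row 476 outside them. No direction can be given for Btk.

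Lat, the transmembrane scaffold of the signalling complex, stood at 3.91 with epoxides, 4.01 with GW9662 and 4.09 with vehicle. Its log2 ratio was -0.18 for epoxides over vehicle and -0.076 for GW9662 over vehicle. The first is 2.15 technical SDs from 0 and turns to 0.088 after detrending. Lat2 encodes NTAL, the adaptor related to LAT that lacks a direct phospholipase C gamma site. It stood at 3.05 with epoxides, 3.07 with GW9662 and 2.92 with vehicle on its probe at chr5:135076329-135076388 on the minus strand. Both treated arrays were above vehicle for Lat2, with log2 ratios of 0.13 and 0.15, each within 2 technical SDs. Lat2 kept a positive ratio in both comparisons under all 9 alternatives that gave it a value. Of these, keeping outlier spots, reading RefSeq probes first and the mean of detected probes left it unchanged, and the value table only exchanges the treated arrays. The Lat2 probe lies in row 206, among the rows with discordant copies, so leaving those rows out gave no value.

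Lcp2 encodes SLP76, the cytosolic adaptor that brings Vav1 and Btk to the LAT complex. Its probe, at chr11:33992133-33992192 on the plus strand, stood at 0.33 with epoxides, 0.79 with GW9662 and 0.41 with vehicle. The GW9662 array was the high one, and the other 2 arrays lay close together. The log2 ratio for GW9662 over vehicle was 0.38, which is 4.64 technical SDs from 0, and for epoxides over GW9662 it was -0.46, or 5.80 technical SDs. Epoxides over vehicle gave -0.077, within 1 technical SD, but 0.16 after detrending, where epoxides over GW9662 was -0.28. The GW9662 value lay outside the interquartile range of all measured genes, -0.11 to 0.056, and it was 0.44 after detrending. Lat2, Btk, Plcg2 and Vav1 also lay outside that interval, nearer to it than Lcp2. The array carries 1 probe for Lcp2, in row 357 among the rows with discordant copies, so no second reading exists. With the columns of the authors' value table the higher array is the epoxide one, at 0.38 over vehicle, and GW9662 over vehicle is -0.077.

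Grb2, the adaptor that carries the Ras exchange factor SOS, had 2 probes well above background on the minus strand of chromosome 11. The brighter, at chr11:115505477-115505537, stood at 3.79 with epoxides, 3.60 with GW9662 and 3.60 with vehicle. The other, at chr11:115506057-115506116, stood at -0.65 with epoxides, -0.49 with GW9662 and -0.47 with vehicle. For epoxides over vehicle the first gave a log2 ratio of 0.19 and the second -0.19, so the sign depends on the probe. The first holds 30% G and C and the second 53.3%. The fitted trend at their GC contents and signals is 0.27 and -0.29, and after detrending the ratios are -0.083 and 0.098. For GW9662 over vehicle both probes were within 1 technical SD of 0, at -0.0023 and -0.021.

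Gab2, the docking protein that carries phosphatidylinositol 3-kinase, was read near the low end of the detected signals. Its levels were -3.43 with epoxides, -3.42 with GW9662 and -3.43 with vehicle, the closest agreement among the 10 genes. The log2 ratio for GW9662 over vehicle was 0.011. Its probe holds 55% G and C, where the fitted trend for epoxides over vehicle is -0.48, and after detrending the ratio is 0.48. Gab2 therefore has no settled difference between the epoxide and vehicle arrays.

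**Figure D1:**
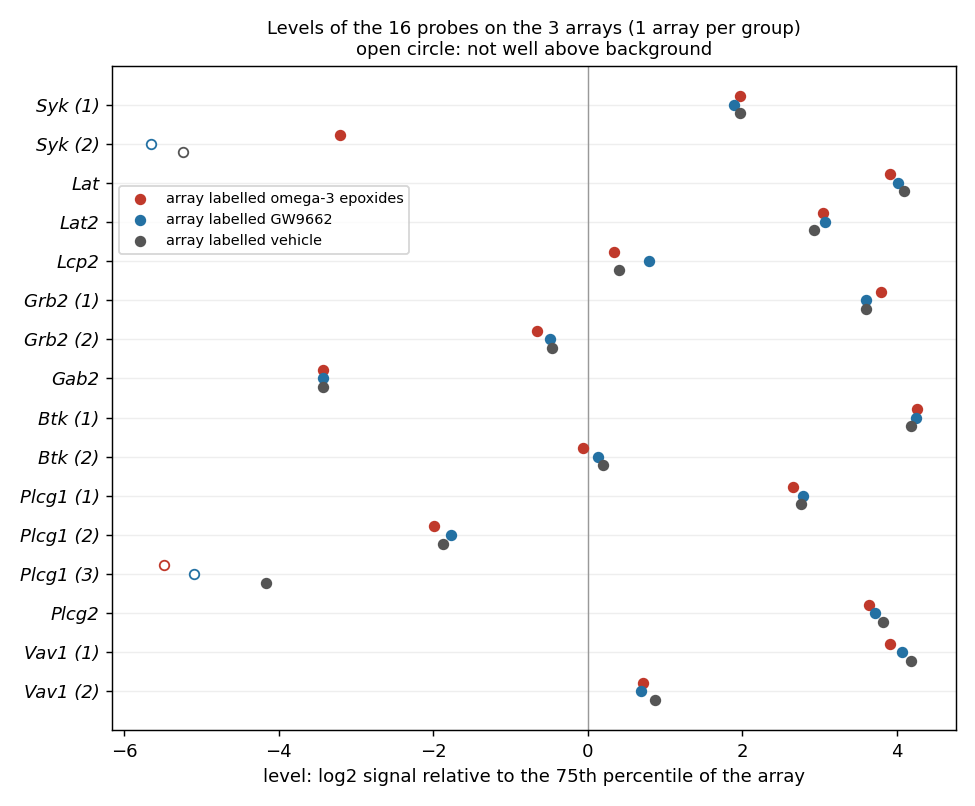
Log2 level (horizontal axis, log2 signal over the 75th percentile of each array) of all 16 probes of the 10 genes on the arrays labelled omega-3 epoxides, GW9662 and vehicle, with open circles where a probe was not well above background. The 3 points lie close together for 14 probes, with Lcp2 higher on the GW9662 array, and only the dim second Syk probe and the dimmest Plcg1 probe spread widely.

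Plcg1 and Plcg2 encode the phospholipases that cleave phosphatidylinositol bisphosphate into the signals for calcium release and protein kinase C. The brightest Plcg1 probe, at chr2:160588680-160588739, stood at 2.66 with epoxides, 2.79 with GW9662 and 2.76 with vehicle. It was designed on a thymus cDNA clone that lies between the 2 probes for the RefSeq transcript. The coding probe printed above stood at -1.99 with epoxides, -1.77 with GW9662 and -1.87 with vehicle. For epoxides over vehicle these probes gave log2 ratios of -0.11 and -0.12, a range of 0.01. After detrending they stood at -0.16 and 0.067, on opposite sides of 0, so the 2 readings lie close together only without that step. The third Plcg1 probe, at chr2:160601437-160601496, was well above background on the vehicle array only. It read 2.51-fold lower with epoxides than with vehicle, taken at its own dim level, so this value is not a bound. With GW9662 it was at least 1.82-fold lower than with vehicle. The brighter probes of the gene showed no such differences. The third probe sits in row 273, among the rows with discordant copies.

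Plcg2, the isoform prominent in mast cells and B cells, stood at 3.63 with epoxides, 3.71 with GW9662 and 3.82 with vehicle on its probe at chr8:120158980-120159037. Both treated arrays were below vehicle, with log2 ratios of -0.18 and -0.11. The first is 2.25 technical SDs from 0 and the second 1.30. Vav1 encodes a guanine nucleotide exchange factor for Rac. Its brighter probe, at chr17:57467307-57467366, stood at 3.92 with epoxides, 4.07 with GW9662 and 4.18 with vehicle, and the SH2 domain probe stood at 0.72 with epoxides, 0.69 with GW9662 and 0.87 with vehicle. Both Vav1 probes were lower on the treated arrays. With epoxides they gave log2 ratios to vehicle of -0.27 and -0.14, and with GW9662 of -0.11 and -0.18. The first of these values is a 1.20-fold difference at 3.27 technical SDs, the widest of the 10 genes in that comparison. Plcg2 and Vav1 kept a negative ratio in both comparisons with vehicle under all 9 alternatives that gave a value. Of these, keeping outlier spots and reading RefSeq probes first left both genes unchanged, as did the mean of detected probes for Plcg2. The value table only exchanges the treated arrays. The Plcg2 probe (row 375) and both Vav1 probes (rows 238 and 329) lie among the rows with discordant copies, so leaving those rows out gave no value. After detrending, the brighter Vav1 probe was at -0.10 and Plcg2 at -0.11 for epoxides over vehicle.

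**Figure D2:**
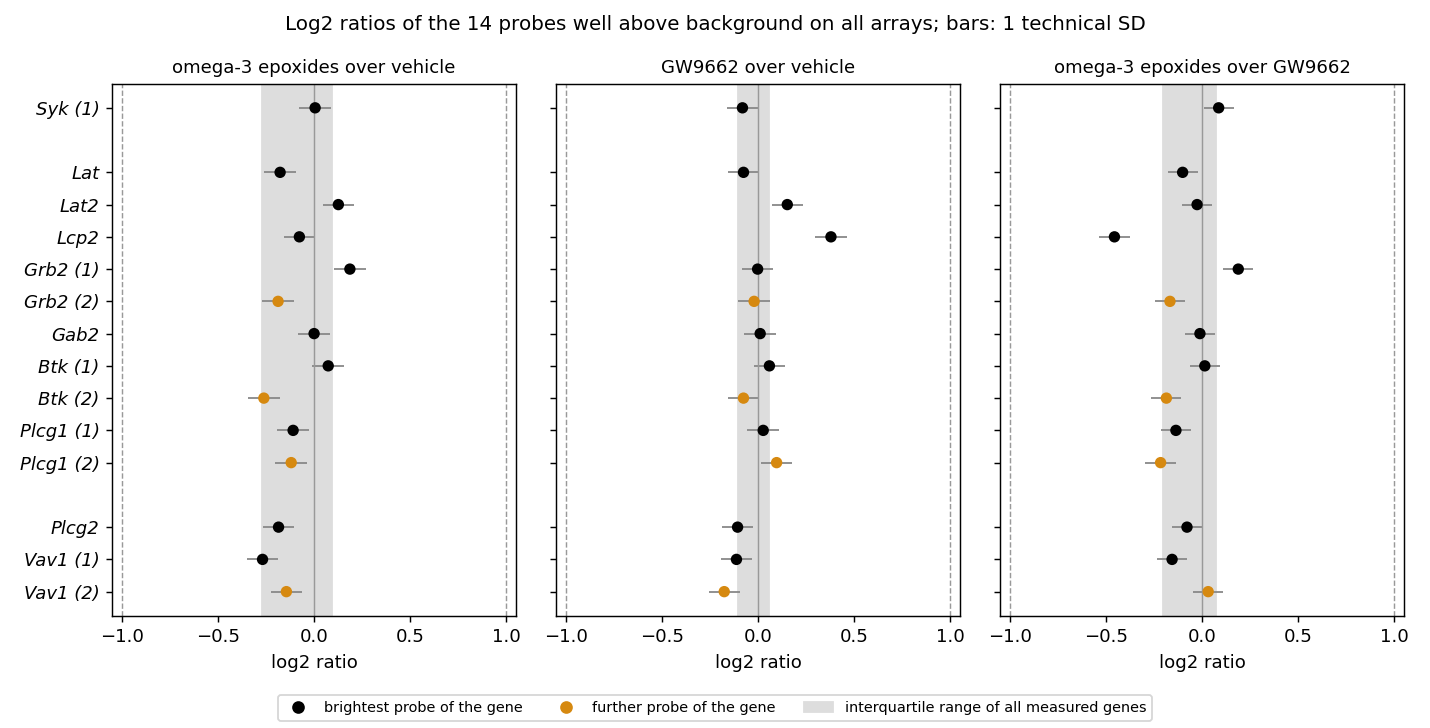
Log2 ratios between arrays (horizontal axis) for the 14 probes well above background on all 3 arrays, with bars of 1 technical SD, dashed lines at 2-fold, and a grey band for the interquartile range of all measured genes. No point reaches a dashed line; Lcp2 lies farthest outside the band for GW9662 over vehicle and for omega-3 epoxides over GW9662, where other genes such as Lat2 and Grb2 also leave it, and the 2 probes of Grb2 and of Btk fall on either side of 0 for omega-3 epoxides over vehicle.

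For omega-3 epoxides over vehicle, 0 of the 10 genes differed 2-fold, where 2.29% of the 15818 measured genes did, and 0 differed 1.5-fold, where 10.2% did. The 2-fold share is 362 genes, and with the rows of discordant copies left out it was 135 of 9927. The log2 ratio was above 0 for 4 of the 10 genes, close to the 38.9% of all measured genes. Their median was -0.038, against -0.073 for all measured genes. On the brightest probes Grb2 was higher and Lat, Plcg2 and Vav1 were lower by more than 2 technical SDs, but Grb2 turned to -0.083 and Lat to 0.088 after detrending, and the other Grb2 probe gave -0.19. That is 4 of 10 genes, where 52.9% of all measured genes passed the same limit, a larger share.

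For GW9662 over vehicle, 0 of the 10 genes differed 2-fold, against 0.823% of the 15795 measured genes, and 0 differed 1.5-fold, against 1.84%. The 2-fold share is 130 genes. With the rows of discordant copies left out, only 3 of 9924 measured genes differed 2-fold. The genes that differed 2-fold thus lay mostly in those rows, where the Lcp2 probe also sits. The ratio was above 0 for 5 of the 10, beside 42.2% of all measured genes. The median of the 10 genes was 0.0043, against -0.022 for all measured genes. Lcp2 alone of the 10 genes lay more than 2 technical SDs from 0, where 21.4% of all measured genes did. These 2 comparisons share the vehicle array.

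For omega-3 epoxides over GW9662, 0 of the 10 genes differed 2-fold, against 1.17% of the 16049 measured genes, and 0 differed 1.5-fold, against 5.75%. The 2-fold share is 187 genes, and with the rows of discordant copies left out it was 27 of 10063. The ratio was above 0 for 3 of the 10, beside 38.9% of all measured genes, and the median was -0.052, against -0.056 for all measured genes. Lcp2 was lower with epoxides by more than 2 technical SDs and Grb2 was higher, at 0.19 on its brighter probe, which gave -0.014 after detrending, while its other probe gave -0.17. The same limit was passed by 44.9% of all measured genes. A count of 0 among 10 genes lies near the 2-fold shares of all measured genes in each comparison.

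The spread between probes of 1 gene shows how far such ratios can be read. For epoxides over vehicle the range between probes was 0.37 in Grb2, 0.33 in Btk, 0.12 in Vav1 and 0.01 in Plcg1, against a median of 0.21 over 3354 genes with at least 2 measured probes. For GW9662 over vehicle the same ranges were 0.018 in Grb2, 0.13 in Btk, 0.064 in Vav1 and 0.07 in Plcg1, against a median of 0.095. The Lcp2 difference of 0.38 in that comparison was wider than each of these 4 ranges, and Lcp2 has no further probe to set beside it.

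Across all measured genes, probe GC content and log2 ratio had a Pearson correlation of -0.48 with epoxides over vehicle, -0.21 with GW9662 over vehicle and -0.41 with epoxides over GW9662. The points share the same 2 arrays within each comparison, so this describes the arrays. Genes read by probes of at most 35% G and C had a median ratio of 0.12 for epoxides over vehicle, and those of at least 50% a median of -0.32. The 2 Grb2 probes fell along this trend. Lcp2 in the GW9662 comparison and Gab2 in the epoxide comparison lay above it.

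**Figure D3:**
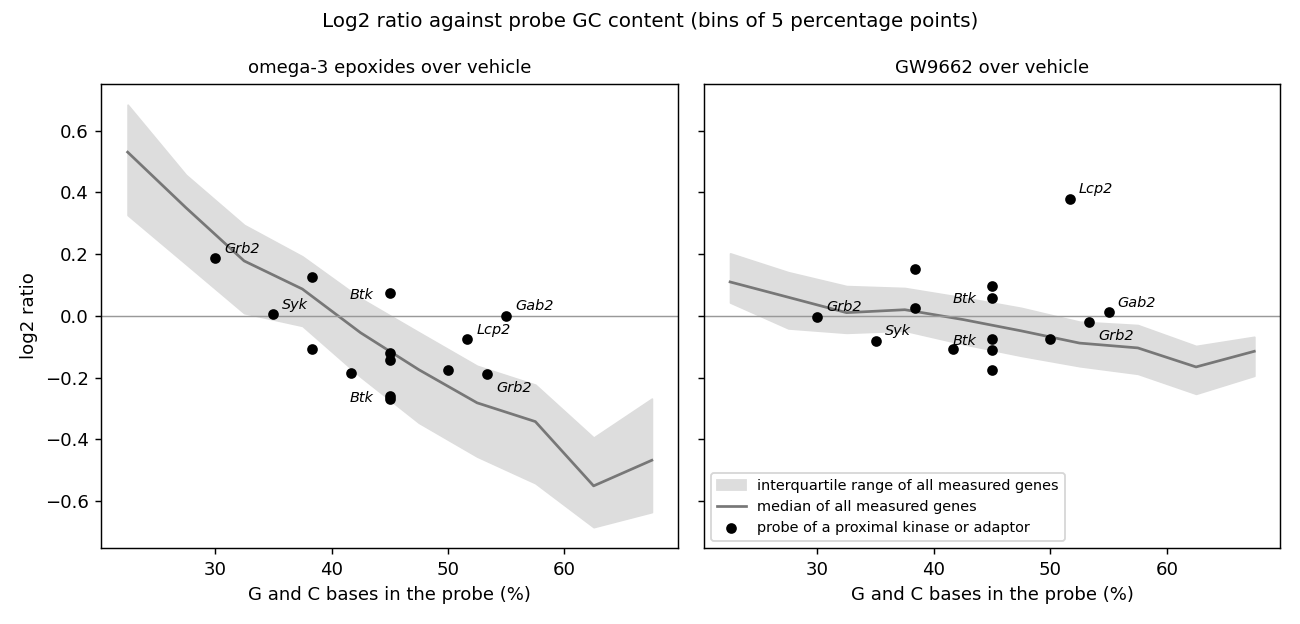
Log2 ratio (vertical axis) against probe GC content (horizontal axis, percent) for the 14 probes well above background on all arrays, over the median line and interquartile band of all measured genes in bins of 5 percentage points. The band slopes down for omega-3 epoxides over vehicle, where the Grb2 probe of 30% G and C lies at 0.19 and that of 53.3% at -0.19, and Lcp2 stands above the band at 0.38 for GW9662 over vehicle.

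The wider pathway was followed in 65 other genes of IgE receptor signalling, of which 58 were measured. For epoxides over vehicle 26 had a ratio above 0 and 32 below, with a median of -0.0063. For GW9662 over vehicle 23 lay above 0 and 35 below, with a median of -0.017, and for epoxides over GW9662 27 lay above and 31 below, with a median of -0.019. Both groups of genes thus centred near 0. None of the 58 differed 2-fold in any of the 3 comparisons, the same count as among the proximal genes. The highest ratio for epoxides over vehicle was that of Csk, the kinase that restrains Src family kinases, at 0.60, or 0.33 after detrending. It was followed by Lyn, which starts the cascade upstream of Syk, at 0.30, or 0.18 after detrending, and by the Ras exchange factor Rasgrp1 at 0.25. The lowest were the sphingosine kinase Sphk1 at -0.62, the MAP kinase kinase Map2k2 at -0.42 and Fcer1g, the gamma chain on which Syk docks, at -0.38. Detrending left Sphk1 at -0.20, Map2k2 at -0.13, Fcer1g at -0.017 and Rasgrp1 at 0.090. Sphk1 stood at -4.97 with epoxides, -4.74 with GW9662 and -4.35 with vehicle, near the lowest levels called well above background. Its ratios here and in the next comparison are therefore readings of dim signal.

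For GW9662 over vehicle the genes toward the ends of the list included Csk at 0.24 and the catalytic phosphatidylinositol 3-kinase subunit Pik3cg at 0.20, against Sphk1 at -0.39 and the kinase Fes at -0.16. For epoxides over GW9662 they included Csk at 0.36 and Lyn at 0.27, against Fcer1g at -0.32, the small GTPase Nras at -0.32 and Map2k2 at -0.29. Detrending left Fcer1g at -0.051 and Map2k2 at -0.077 in that comparison, and Sphk1 at -0.29 for GW9662 over vehicle. The Lcp2 value for GW9662 over vehicle, 0.38, was above the highest of these 58 genes, and its value of -0.46 for epoxides over GW9662 was below the lowest. After detrending the second ranking no longer held, with Lcp2 at -0.28 and Nras at -0.33 for epoxides over GW9662. The pathway list and the proximal genes share the same arrays.

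Genes listed as relatives of the 10 were also checked for signal. Of 16 such genes, 9 were well above background on all arrays and 7 on none. The undetected ones were Grap, Gab1, Vav2, Vav3, Pag1, Lax1 and Sit1. Beside Lcp2, its relatives Blnk and Clnk were detected. Clnk, which encodes the mast cell adaptor MIST, stood at 3.78 with epoxides, 3.74 with GW9662 and 3.67 with vehicle, and Blnk at -2.09 with epoxides, -2.17 with GW9662 and -2.21 with vehicle. Neither shared the high GW9662 value of Lcp2. Grap2 encodes GADS, the adaptor that ties SLP76 to LAT, and stood at -1.95 with epoxides, -2.14 with GW9662 and -2.34 with vehicle. Beside Gab2, Gab3 stood at 5.21 with epoxides, 5.07 with GW9662 and 5.05 with vehicle.

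The kinases related to Syk and Btk included the T cell kinase Zap70, at -4.38 with epoxides, -3.99 with GW9662 and -3.53 with vehicle. Its ratio of -0.85 for epoxides over vehicle ran the same way as that of Cd3e, -1.09, and the part of T cells in it was not tested. After detrending the Zap70 ratio is -0.37, while that of Cd3e is -0.95. Zap70 was dimmer than Gab2 on each array, so its ratio is a reading of dim signal. Among Tec family kinases, Tec stood at -1.47 with epoxides, -1.49 with GW9662 and -1.56 with vehicle, and Txk at 2.58 with epoxides, 2.41 with GW9662 and 2.53 with vehicle. Bmx stood at -3.23 with epoxides, -2.67 with GW9662 and -2.46 with vehicle. Bmx thus had the widest spread of these 3 kinases, with a ratio of -0.77 for epoxides over vehicle, or -0.56 after detrending, at a low signal. Beside these stand the epoxides over vehicle log2 ratios of the proximal genes named above as also used by T cells. They were -0.27 for Vav1, -0.18 for Lat, -0.11 for Plcg1 and -0.077 for Lcp2. After detrending they were -0.10 for Vav1, 0.088 for Lat, -0.16 for Plcg1 and 0.16 for Lcp2, so their signs were mixed. Other genes of the LAT complex went the other way before detrending. Grap2 was at 0.39, or 0.33 after detrending, and the brighter Grb2 probe at 0.19, or -0.083 after detrending. Of all 10 proximal genes, 4 had a ratio above 0 and 6 below. The part of T cells in these values was not tested.

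**Figure D4:**
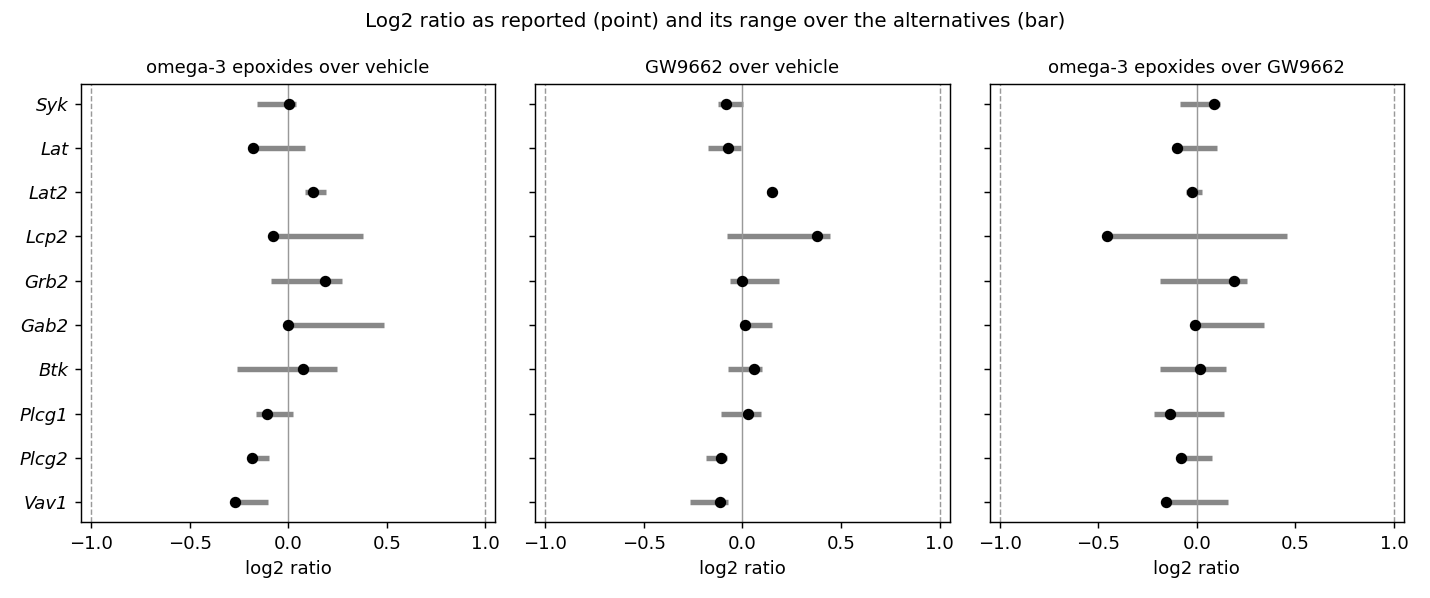
Log2 ratio of each of the 10 genes as reported (point) and the range it took over the processing alternatives (bar), with dashed lines at 2-fold. No bar reaches a dashed line, and Lat2, Plcg2 and Vav1 stay on 1 side of 0 in both comparisons with vehicle. The bars of these genes do not cover leaving out the rows with discordant copies, where all their probes lie. The long Lcp2 bars end at the value of the authors' value table, 0.38 for omega-3 epoxides over vehicle and 0.46 for omega-3 epoxides over GW9662.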

How the data were processed

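RNA (200 ng per labelling, per the labels) was read on 1-colour Agilent arrays with Feature Extraction 11.5.1.1, per the submitters' processing notes. Per the file headers, the processed signal is a linear intensity from which background was subtracted, with no scaling between arrays. The value table deposited by the authors holds a linear ratio of that intensity to the array's 75th percentile. Its column medians were 0.0455 for the epoxide column, 0.0369 for the GW9662 column and 0.0475 for the vehicle column, and each column matched 1 scanner file to within 0.001. Flags for background, saturation and outlier spots were used as deposited.

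Log2 intensity was reduced by the log2 of the array's 75th percentile, outlier spots (221 with epoxides, 251 with GW9662 and 230 with vehicle) were left out and copies of a probe were averaged. The probe of highest mean level read each gene, which was measured if well above background on the 2 arrays compared. A ratio of 2-fold was the call. For a bound, a dim array was given its own level or, if higher, the lowest level well above background on it (-5.57 with epoxides, -5.03 with GW9662 and -4.84 with vehicle). Where its own level was used, the value is a reading and not a bound. The technical SD is the median SD among copies of 219 probes with at least 5 copies. Of the 16 probes, 14 were named by accession through RefSeq (GRCm38.p6) and the other 2 by the file's gene name. Positions are those of the array files (mm9).

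The genes and lists were chosen with earlier results of these data known. Named genes were the 10 members with every probe, the 3 highest and 3 lowest of the pathway list in each comparison, the detected relatives, and up to 4 detected markers per list. Values of 2 genes that this rule names are not reported here. The further detected markers were Cd22, Vpreb1, Cr2 and Fcer2a (B cell), Cx3cr1, Cd68, Adgre1 and Csf1r (macrophage), Elane, Lcn2, Mmp8 and Camp (neutrophil) and Cd200r3, Cd69, Il4 and Mcpt8 (basophil). Alternatives were quantile normalization and cyclic loess (limma 3.58.1 in R 4.3.3), normexp background correction with an offset of 50, scaling on detected probes, the value table, the mean of detected probes, outlier spots kept, no filter on dim probes, leaving out the band of rows with discordant copies (named by an earlier analysis of these data), removing a quadratic trend in GC content and signal, both of these together, and 1.5-fold in place of 2-fold. Reading RefSeq probes first was added after seeing the data. Scripts ran in Python 3.11.15 and were tested on simulated data.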

Additional observations from a re-analysis of the deposited data

How the results depend on the processing

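No paired analysis was possible because each group has 1 array and the labels give no replicate numbers. The count of genes at least 2-fold apart was 0 in each comparison under every alternative that was run, also at 1.5-fold. The median for epoxides over vehicle moved to -0.16 when the band of rows with discordant copies was left out and the ratios were detrended, with 5 of the 10 genes left. The median for epoxides over GW9662 was 0.052 with the authors' value table, whose treated columns are exchanged. The other medians stayed within 1 technical SD of the values reported. Of 100 alternative values of single genes in each comparison, 28 moved by more than 1 technical SD in epoxides over vehicle, 10 in GW9662 over vehicle and 25 in epoxides over GW9662, and the widest was 1.40-fold. The value table, which only exchanges the treated arrays, gave 6 of the 28, 6 of the 10 and 7 of the 25. Cyclic loess and quantile normalization brought the median of all genes for epoxides over vehicle to -0.0087 and 0.0083. Gab2, the second probe of Syk and the third probe of Plcg1 were too close to background for a small difference to be read. Sphk1, Zap70 and Cd28 were dimmer than Gab2 on each array, so the same limit holds for them.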
